A study of Mus musculus with 7 samples.

Results

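The clustered protocadherin genes are 57 protein-coding genes on mouse chromosome 18, taken as every RefSeq gene there whose symbol starts with Pcdha (14 genes), Pcdhb (22 genes) or Pcdhg (21 genes), out of 21631 protein-coding genes of the autosomes and X. Replication origins were mapped in mouse embryonic stem cells (mESCs) by sequencing short nascent strands, the short pieces of new DNA left where a replication fork has just started. APH cells were kept for 2.5 h in 0.5 µM aphidicolin, which blocks the DNA polymerases of the fork, a treatment the labels call mild replication stress. CDC6 cells had doxycycline at 1 µg/ml in the medium for 30 h, which switches on a transgene for CDC6, a factor that helps load the replicative helicase at origins. WT cells were untreated. There were 2 libraries per condition, and the authors made 1 origin list per condition; the Input sample was not analysed here. APH 1, APH 2, CDC6 1, CDC6 2, WT 2 and the Input came from TetO-CDC6 mESCs, which carry the inducible transgene in all 3 conditions. WT 1 came from mESCs labelled only as embryonic stem cells of WT genotype and described as submitted earlier. For APH and CDC6, nothing in the labels states whether the 2 libraries stem from separate cultures, so their spread may be technical. The 2 WT libraries differ in the source of the cells, so their spread includes that difference. The tests measure only the spread between these libraries. Nascent strands carry no expression values, so neither the cell type nor the induction of CDC6 was checked against marker genes.

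Clustered protocadherins are cell-surface adhesion proteins best known from neurons, where different combinations of isoforms on single cells let a neuron tell its own branches from those of others. In the alpha and gamma clusters each member is a large variable first exon with its own promoter, spliced to a few constant exons that all members of the cluster share. In the beta cluster each member is a short gene with its own end. Members named with a c (Pcdhac1, Pcdhac2, Pcdhgc3, Pcdhgc4 and Pcdhgc5) are the C-type isoforms, which are widely expressed in neurons, while the other alpha and gamma members are alternate isoforms chosen variably from cell to cell. All 3 clusters are transcribed in the same direction in the mouse, toward higher coordinates.

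The gene table showed this layout. The 14 alpha members covered chr18:36930285-37188897 (258.6 kb) in mm10, and their upper ends lay within 1240 bp of each other. The 22 beta members covered chr18:37264998-37521419 (256.4 kb) and were 2340 to 5271 bp long. The 21 gamma members covered chr18:37661775-37841873 (180.1 kb), with upper ends within 10 bp. The table gives no strand, so the lower end of a member is called its start below, from the known direction of the clusters. Each cluster was described with 20 kb on either side, which gave an alpha, a beta and a gamma window of 298.6, 296.4 and 220.1 kb, together 815.1 kb. Members of 1 cluster resemble each other in sequence, and the sources used here do not say how the authors placed reads that match several copies.

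The APH list had 9 origins in the 3 windows, the CDC6 list 15 and the WT list 8. By cluster, the APH list had 1 origin in the alpha, 5 in the beta and 3 in the gamma window. The CDC6 list had 3 in the alpha, 6 in the beta and 6 in the gamma window. The WT list had 1 in the alpha, 4 in the beta and 3 in the gamma window. The alpha window thus held the fewest origins in each list, although it is the longest of the windows. Set beside the genome, the windows had 11 origins per Mb in the APH list against 12 over the autosomes and X, a ratio of 0.917. They had 18.4 per Mb in the CDC6 list against 11.9, a ratio of 1.54, and 9.81 per Mb in the WT list against 7.68, a ratio of 1.28. With 1 list per condition these numbers have no replicate check. Stretches without an origin were measured between the lower border of the alpha window and the upper border of the gamma window. The widest was 233.2 kb in the APH list, which ran from the lower border up to Pcdhac2. It was 117.4 kb in the CDC6 list, between Pcdhac2 and Pcdhb1. In the WT list it was 268.5 kb, between Pcdhac2 and Pcdhb10, and the next widest, 233.1 kb, ran from the lower border up to Pcdhac2. Both stretches up to Pcdhac2 were cut at the border, so their widths are lower limits. Below the border, the nearest origin was at chr18:36863970-36865620 in the APH list. In the WT list it was closer, at chr18:36901471-36902037.

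**Figure D1:**
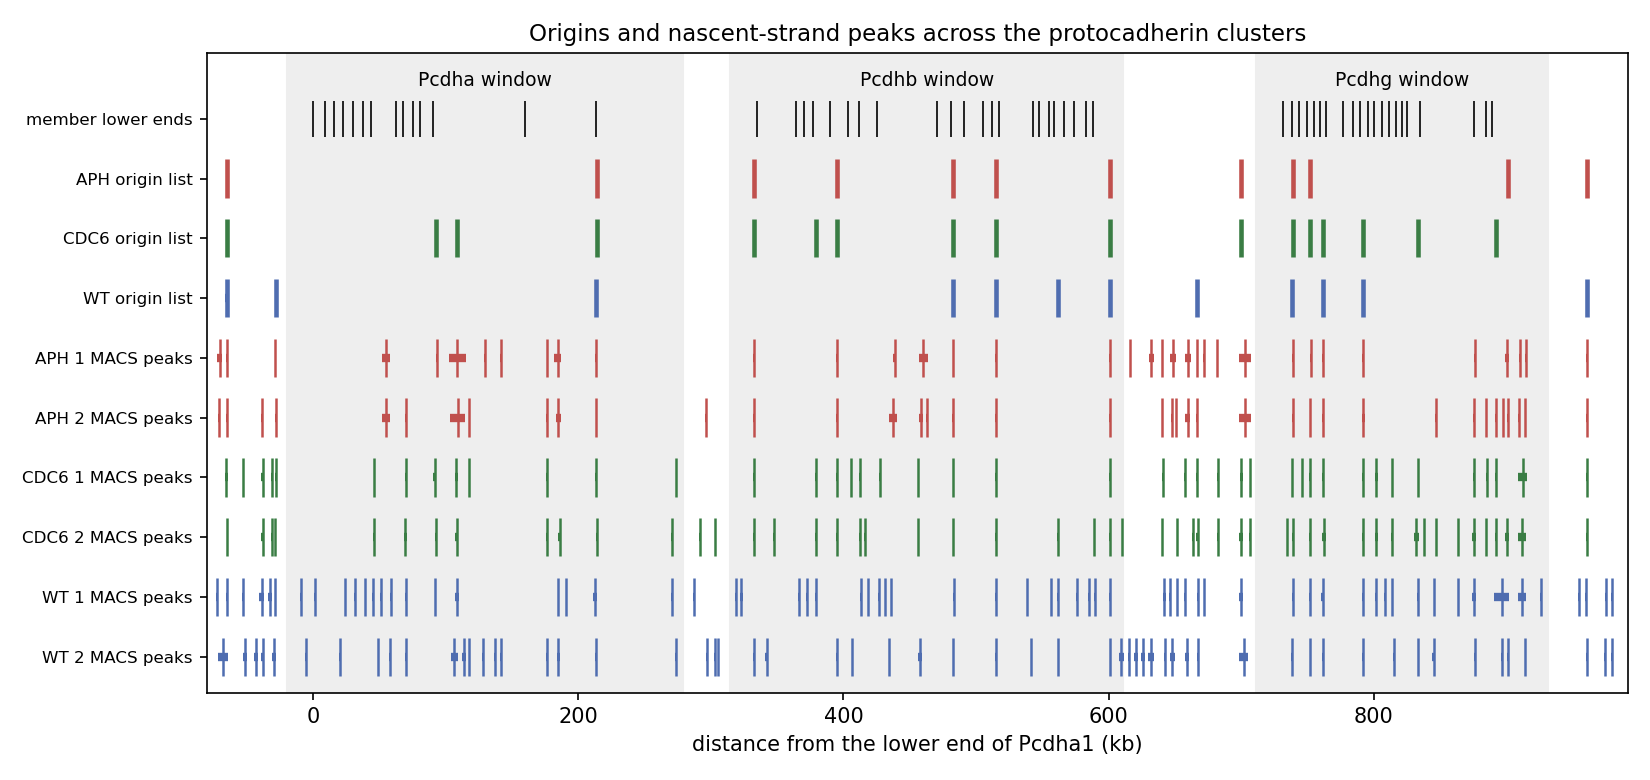
Map of the 3 windows (grey) with distance from the lower end of Pcdha1 in kb on the horizontal axis. Black ticks mark the lower ends of the 57 members, thick coloured ticks the origins of the APH, CDC6 and WT lists, and thin ticks the midpoints of MACS peaks in each of the 6 libraries, with horizontal bars for peak width; the alpha window holds 1 APH, 3 CDC6 and 1 WT origin.

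Merged over the 3 lists, the origins formed 17 distinct regions, of which 5 were in all 3 lists. The alpha window held 1 of these 5, at the start of Pcdhac2, the last alpha member and a C-type isoform (chr18:37143307-37144634). The beta window held 3, inside Pcdhb10 (chr18:37412738-37413615), inside Pcdhb13 (chr18:37444884-37445525) and 13.1 kb past the start of Pcdhb22, the last beta member. The gamma window held 1, at the start of Pcdhga2, an alternate gamma isoform of the A type (chr18:37668685-37669418). Genome-wide 25.5% of 46639 merged regions were in all 3 lists, and in the windows the share was 29.4%.

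A further 3 regions were shared by the APH and CDC6 lists. They lay 2.58 kb before Pcdhb1, 4.91 kb past the start of Pcdhb5 and 2.21 kb past the start of Pcdhgb1. The CDC6 and WT lists shared 2 regions, 2.17 kb past the start of Pcdhgb2 and 1.87 kb past the start of Pcdhgb4, both gamma isoforms of the B type. The CDC6 list alone held 5 regions, at 2.72 and 18.4 kb past the start of Pcdha12, inside Pcdhb4, 1.78 kb before Pcdhga12 and 3.05 kb past the start of Pcdhgc5. The APH list alone held 1 region, 12.2 kb past the start of Pcdhgc5, and the WT list alone held 1, inside Pcdhb18. CDC6-only regions made up 29.4% of the 17 regions against 20.1% of all merged regions, APH-only regions 5.88% against 19.3%, and WT-only regions 5.88% against 8.30%.

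Absence from a list did not mean absence of peaks. MACS peaks, the enriched stretches called per library, were present in both libraries of a condition at every listed origin of that condition in the windows. Of the 8 regions absent from the APH list, 3 had a peak in both APH libraries, 2 had one in 1 library and 3 had none. Both regions absent from the CDC6 list, inside Pcdhb18 and 12.2 kb past the start of Pcdhgc5, had a peak in 1 CDC6 library. Of the 9 regions absent from the WT list, 4 had a peak in both WT libraries, 4 in 1 library and 1 in none. Of the 17 regions, 9 had a peak in all 6 libraries, among them the CDC6-only region 18.4 kb past the start of Pcdha12.

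The strongest origin region of the windows by mean rank was that at Pcdhac2. Its peak had a fold over the shared control of 3.12 in APH 1, 3.82 in APH 2, 4.78 in CDC6 1, 4.49 in CDC6 2, 5.03 in WT 1 and 2.53 in WT 2. Within each library the peak stood at percentile rank 77.5, 88, 93.2, 93.5, 96.1 and 67.7 by q-value, in the same order of libraries. WT 1 was the highest and WT 2 the lowest of the 6, so the untreated libraries enclosed the treated ones. At Pcdhga2 the fold was 2.75 in APH 1, 3.44 in APH 2, 4.38 in CDC6 1, 3.76 in CDC6 2, 3.51 in WT 1 and 3.10 in WT 2. Here both CDC6 libraries lay above the other 4. At Pcdhgb4 the fold was 2.2 in APH 1, 2.32 in APH 2, 4.41 in CDC6 1, 3.46 in CDC6 2, 2.47 in WT 1 and 2.24 in WT 2, and again the CDC6 libraries were the highest. These folds are the authors' and were not tested across libraries.

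Of the other origins in all 3 lists, the region past Pcdhb22 had the higher ranks in most libraries. Its fold was 3.61 in APH 1, 3.41 in APH 2, 3.05 in CDC6 1, 3.09 in CDC6 2, 2.44 in WT 1 and 2.98 in WT 2. Both APH libraries were the highest there and WT 1 the lowest, at percentile rank 31.8 against 66.6 to 83.6 in the other 5 libraries. Inside Pcdhb10 the fold was 2.2 in APH 1, 2.74 in APH 2, 2.24 in CDC6 1, 2.27 in CDC6 2, 2.39 in WT 1 and 2.17 in WT 2. The values of the 3 conditions overlapped. Inside Pcdhb13 the fold was 2.78 in APH 1, 2.75 in APH 2, 2.22 in CDC6 1, 3.12 in CDC6 2, 3.81 in WT 1 and 2.47 in WT 2, with overlap again. The region before Pcdhb1 had a fold of 4.25 in APH 1, 3.69 in APH 2, 2.54 in CDC6 1, 4.08 in CDC6 2 and 3.42 in WT 2, and no peak in WT 1. WT 1 also had no peak at the region past Pcdhb5, where the other 5 libraries had folds of 2.99 to 4.53. WT 1 was thus the 1 library without a peak at both regions that the APH and CDC6 lists shared in the beta window.

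**Figure D2:**
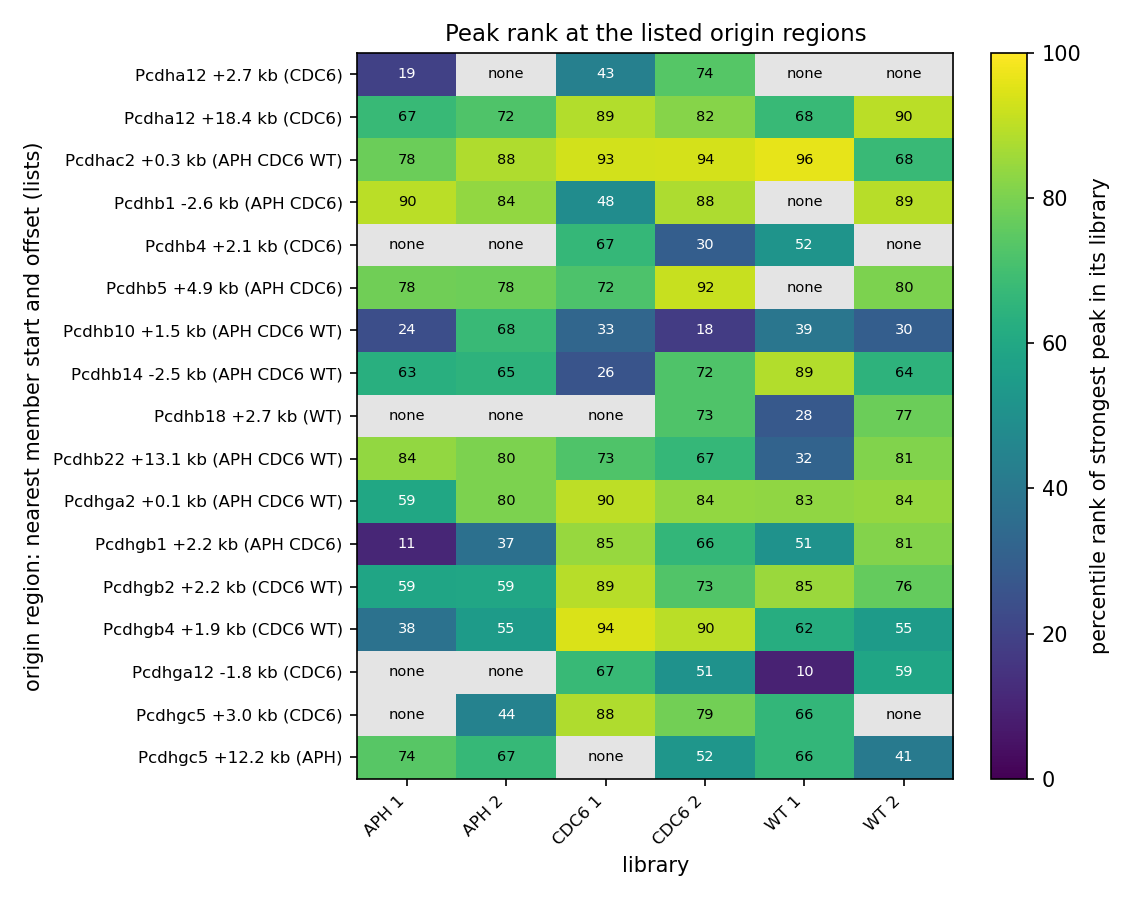
Percentile rank (from the −log10 q-value) of the highest-ranked MACS peak at each of the 17 origin regions (rows, named by the nearest member start, the offset of the region's midpoint in kb and the lists that hold it) in each library (columns, APH, CDC6, WT); grey marks no peak. The Pcdhac2 region ranks between 67.7 and 96.1, and the Pcdhb10 region between 17.8 and 67.6.

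Few members had a listed origin close to either of their ends. An origin lay within 1 kb of an end in 4 of 57 members in the APH list (7.02%), 4 of 57 in the CDC6 list (7.02%) and 3 of 57 in the WT list (5.26%). Over all protein-coding genes the share was 33.3% in the APH list, 40.6% in the CDC6 list and 32.2% in the WT list. The members were Pcdhac2, Pcdhb13 and Pcdhga2 in all 3 lists and Pcdhb10 in the APH and CDC6 lists. Pcdhb10 counted as gained in both treatments because the treated origins reached nearer to its upper end than the WT origin inside the same gene. That made 1 of 54 members without a WT origin (1.85%) in either treatment, against 7.72% of such genes genome-wide in the APH list and 15.3% in the CDC6 list. No member lost its origin: 0 of 3 in either treatment, against 12.7% of genes in the APH and 6.05% in the CDC6 list.

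Other tandem gene families had shares on both sides of these values, with no test made between families. Olfactory receptor genes, which also encode variably chosen surface receptors, had an origin at an end in 1.17% of 1110 genes in the APH list, 1.44% in the CDC6 list and 1.53% in the WT list. Vomeronasal receptor genes had one in 2.82%, 2.54% and 1.69% of 355 genes in the APH, CDC6 and WT lists. Hox genes, developmental transcription factors in dense clusters, had one in 43.6%, 69.2% and 51.3% of 39 genes in the same lists. Of 12 protocadherin genes outside the clusters, 4 had an origin at an end in each list, with Pcdh8, Pcdh1 and Pcdh19 in all 3 lists. Of 12 genes known to regulate the clusters, 7 had one in the APH list and 6 each in the CDC6 and WT lists. Ctcf, which encodes the insulator protein that binds protocadherin promoters, was in all 3, as were Smchd1 and Dnmt3b, encoding repressors of the clusters. Rest, Smc3 and Stag2 were also in all 3, while Setdb1, Stag1, Wapl, Nipbl and Rad21 were in no list. Among other genes reaching into the windows, Diaph1 had an origin in the CDC6 and WT lists at its upper end, which lies outside the windows. Its lower end, next to the gamma cluster, had no listed origin. Taf7, between the beta and gamma clusters, and the read-through gene models Gm37013, Gm38666 and Gm38667 had none at either end.

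The MACS peaks gave a denser map. The windows held 23 peaks in APH 1, 27 in APH 2, 30 in CDC6 1, 37 in CDC6 2, 48 in WT 1 and 38 in WT 2. The libraries as a whole ranged from 71435 peaks in APH 2 to 94747 in WT 1. In the alpha window there were 8 peaks in APH 1, 7 in APH 2, 8 in CDC6 1, 8 in CDC6 2, 15 in WT 1 and 15 in WT 2. Both WT libraries lay above all 4 treated libraries there. In the beta window there were 7 in APH 1, 8 in APH 2, 10 in CDC6 1, 13 in CDC6 2, 19 in WT 1 and 12 in WT 2, so that both APH libraries lay below the other 4 and CDC6 and WT overlapped. In the gamma window there were 8 in APH 1, 12 in APH 2, 12 in CDC6 1, 16 in CDC6 2, 14 in WT 1 and 11 in WT 2, and the conditions overlapped. Relative to the genome, the gamma window was the densest in each library except WT 1 and WT 2, at 1.28 to 2.33 times the genome's peaks per Mb.

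None of these differences passed a test across the genome. Peak numbers in the 3 windows and in 200 kb bins were compared with limma on log2(scaled peak number + 1), with Benjamini-Hochberg adjustment over 12504 windows and bins. The alpha window differed by -0.67 between APH and WT (SE 0.278, 95% interval -1.29 to -0.06, limma adjusted p = 0.871) and by -0.66 between CDC6 and WT (SE 0.278, interval -1.27 to -0.05, limma adjusted p = 0.868). The beta window differed by -0.68 between APH and WT (SE 0.286, limma adjusted p = 0.871) and by -0.20 between CDC6 and WT (limma adjusted p = 0.919). The gamma window differed by -0.07 between APH and WT (limma adjusted p = 0.977) and by 0.32 between CDC6 and WT (limma adjusted p = 0.891). Between APH and CDC6 the differences were -0.02, -0.48 and -0.39 in the alpha, beta and gamma windows, with limma adjusted p of 0.987, 0.747 and 0.802. Of all windows and bins, limma called 0 (0%) in each comparison, with 649, 645 and 871 at an unadjusted p under 0.05 for APH against WT, CDC6 against WT and APH against CDC6. Without WT 2, the beta window passed for APH against WT (-0.89, limma adjusted p = 0.024), while 1941 windows and bins were then called. Without WT 1, which came from another mESC line, it did not pass (-0.48, limma adjusted p = 0.399) and 85 were called. In the other comparisons no window passed without either WT library, while 1302 bins for CDC6 against WT and 531 for APH against CDC6 were called without WT 1, and 404 and 540 without WT 2.

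**Figure D3:**
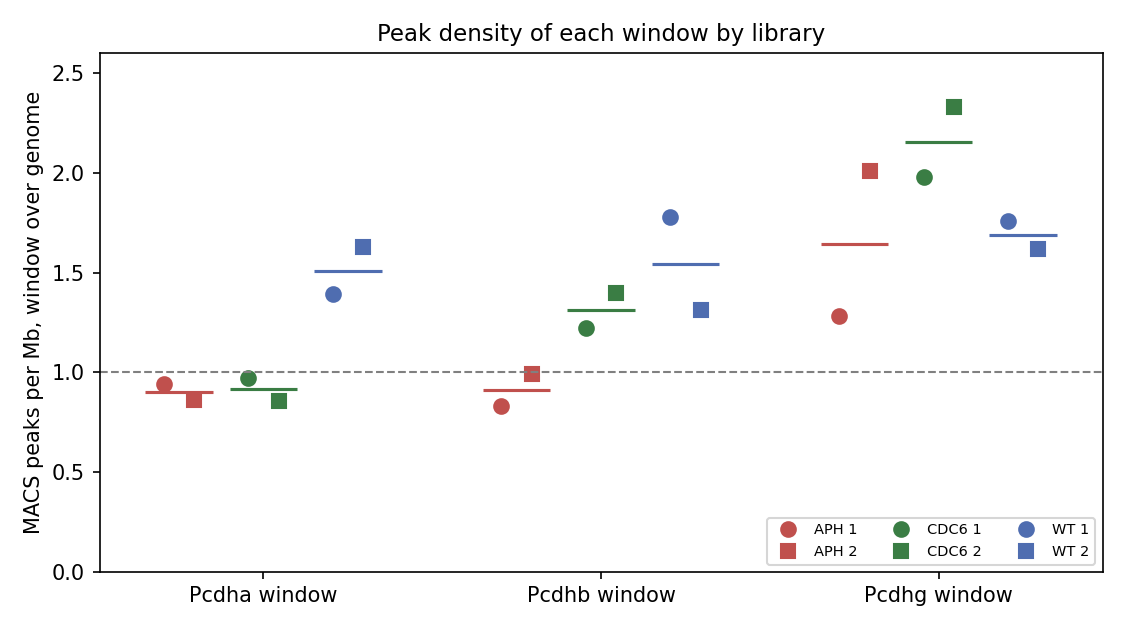
MACS peaks per Mb in each window divided by the same library's peaks per Mb over the autosomes and X, for the 2 libraries of APH, CDC6 and WT (circle, library 1; square, library 2; bar, their mean; dashed line, the genome's density). In the alpha window the APH and CDC6 libraries lie at 0.858 to 0.973 and the WT libraries at 1.39 and 1.63.

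Equal numbers of alpha peaks in the WT libraries did not come from the same places. Of the 15 alpha peaks of WT 1, 5 overlapped a peak of WT 2, and the same held in the other direction. In the beta window 4 of 19 WT 1 peaks overlapped a WT 2 peak, against 9 of 14 in the gamma window. Over the 3 windows 20 of 23 APH 1 peaks overlapped an APH 2 peak (87.0%), 25 of 30 CDC6 1 peaks a CDC6 2 peak (83.3%) and 18 of 48 WT 1 peaks a WT 2 peak (37.5%). In the other direction the shares were closer, at 77.8% for APH 2, 67.6% for CDC6 2 and 50% for WT 2. Covered length also ran another way than number. Peaks covered 32.2 kb of the alpha window in APH 1 and 25.3 kb in APH 2, 10.7 kb in CDC6 1 and 12.9 kb in CDC6 2, and 19.6 kb in WT 1 and 25.2 kb in WT 2. The median width of alpha peaks was 1937 bp in APH 1, 1378 bp in APH 2, 1232 bp in CDC6 1, 1610 bp in CDC6 2, 1180 bp in WT 1 and 1432 bp in WT 2. By this median APH 1 had the widest peaks, and APH 2 lay below CDC6 2 and WT 2. The median does not reflect the covered length in APH 2, where 7 peaks covered 25.3 kb. In CDC6 2, 8 peaks covered 12.9 kb, and in WT 2, 15 peaks covered 25.2 kb.

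Peaks of the windows were near the middle of their libraries in strength. Their median percentile rank by q-value was 37.8 in APH 1, 44.7 in APH 2, 56.1 in CDC6 1, 58.3 in CDC6 2, 44.5 in WT 1 and 48.4 in WT 2. The CDC6 libraries were the highest and APH 1 the lowest. The strongest 10% of a library's peaks included 0 of the windows' peaks in APH 1 and APH 2, 3 in CDC6 1, 2 in CDC6 2, 1 in WT 1 and 0 in WT 2. The strongest origin of the neighbourhood lay outside the windows, 31.2 kb before Pcdhga1 (chr18:37629813-37631338), at ranks of 93.5 to 99.6, in the APH and CDC6 lists.

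In WT 1 and both CDC6 libraries, more members had a peak about 2 kb into the gene than on the start. In WT 1 the start itself lay in a peak in 3 of 57 members, and the position 2 kb further in lay in a peak in 22 of 57. In CDC6 1 the numbers were 4 at the start and 12 at 2 kb, and in CDC6 2 they were 5 and 11. In APH 1 they were 3 and 2, in APH 2 3 and 5, and in WT 2 3 and 4. APH 1, APH 2 and WT 2 therefore showed little or no such crest. Other genes ran the opposite way: among 17274 genes with a known strand the start lay in a peak in 34.3% (APH 1) to 53.1% (WT 1), and the position 2 kb in lay in one in 8.97% (APH 1) to 18.2% (WT 1). Olfactory receptor genes had low shares at both positions, with 0.742% to 1.69% at the start and 1.27% to 3.18% at 2 kb. In each library their share was higher at 2 kb than at the start, but it was also higher 2 kb before the start. In WT 1 it was 2.65% at 2 kb before the start, 1.27% at the start and 1.91% at 2 kb into the gene. In WT 1 the crest was made of 11 of 22 beta members, 5 of 14 alpha members and 6 of 21 gamma members. The position and the windows of 3 kb used next were chosen after the peaks had been seen, and no test was made on them.

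**Figure D4:**
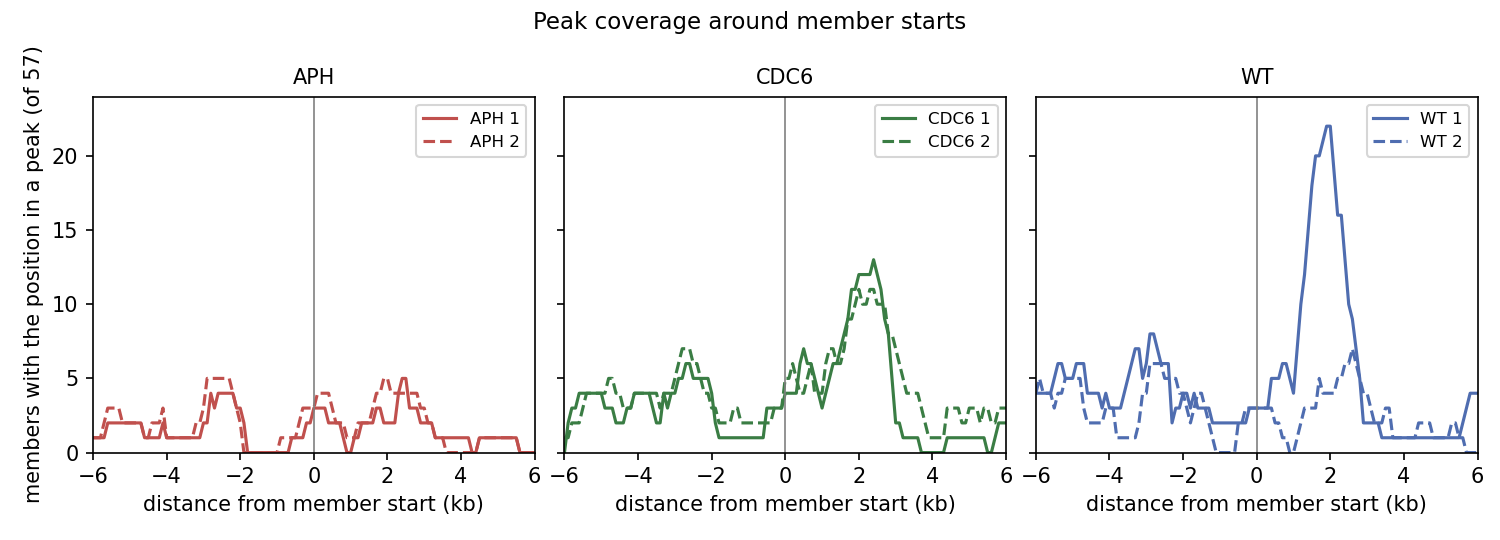
Number of the 57 members whose position at a given distance from the start (kb, horizontal axis, positive into the gene) lies in a MACS peak, for APH, CDC6 and WT (solid line, library 1; dashed line, library 2). At 2 kb the count is 22 in WT 1, 12 in CDC6 1 and 11 in CDC6 2, against 2 to 5 in the APH libraries and WT 2.

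Of the 17 merged origin regions, 11 (64.7%) touched the first 3 kb of a member. These stretches make up 21.0% of the length of the windows, and a region of some width touches them more often than its midpoint falls in them. By list it was 5 of 9 origins for APH, 10 of 15 for CDC6 and 7 of 8 for WT. Counted per member, 5 of 57 had an APH origin in the first 3 kb and 5 in the 3 kb before the start. For CDC6 origins these were 10 and 8 members, and for WT origins 7 and 5. The inner and outer counts overlap, because many starts lie close together. The origin inside Pcdhb13 also lies in the 3 kb before Pcdhb14. An origin over a start, such as that at Pcdhac2, touches both sides. These numbers therefore do not show how origins divide between the inner and the outer side. In the beta window 4 of 7 regions touched a beta gene, inside Pcdhb4, Pcdhb10, Pcdhb13 and Pcdhb18, while the genes take 25.5% of that window.

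Per member, a peak touched the first 3 kb in 9 of 57 members in APH 1, 11 in APH 2, 20 in CDC6 1, 22 in CDC6 2, 29 in WT 1 and 11 in WT 2. The 3 kb before the start held one in 8, 8, 11, 11, 12 and 12 members in the same libraries. The WT libraries were the farthest apart of the 3 pairs, and their range took in APH 2 and both CDC6 libraries. Among other genes with a strand, 44.9% (WT 2) to 63.6% (WT 1) had a peak in the first 3 kb. Gamma starts are close together, at a median step of 5.37 kb, so that 1 peak can stand near 2 members.

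A small core of members had a peak in their first 3 kb in all 6 libraries. These 8 were Pcdhac2, Pcdhb10, Pcdhb13, Pcdhga2, Pcdhgb1, Pcdhgb2, Pcdhgb4 and Pcdhgc3, while 22 members had none in any library. By type, a peak in all 6 libraries was found in 0 of 12 alternate alpha members, 2 of 22 beta, 1 of 12 gamma A, 3 of 6 gamma B and 2 of 5 C-type members. Neighbouring gamma A and gamma B genes differed: Pcdhgb1 and Pcdhgb2 had peaks in 6 libraries, and Pcdhga4, which lies between them, in 0. Of the other gamma B genes, Pcdhgb5 and Pcdhgb6 had peaks in CDC6 1, CDC6 2 and WT 1, and Pcdhgb7 had none. These genes were singled out after their values were seen.

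Pcdhgc3 stood out among the 8 because it had no listed origin. Its fold was 2.15 in APH 1, 2.36 in APH 2, 2.61 in CDC6 1, 2.61 in CDC6 2, 2.94 in WT 1 and 2.16 in WT 2. WT 1 was the highest and WT 2 close to the lowest, so the WT values took in those of APH 2 and CDC6. The other C-type gamma members were more uneven. Pcdhgc4 had folds of 2.64 in APH 2, 2.75 in CDC6 1 and 2.91 in CDC6 2, with no peak in APH 1, WT 1 or WT 2. Pcdhgc5, the last gamma member, had folds of 2.19 in APH 2, 3.37 in CDC6 1, 2.98 in CDC6 2 and 2.63 in WT 1, and no peak in APH 1 or WT 2. Pcdhac1, the other C-type alpha member, had no peak in any library.

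Of the members without a listed origin, 5 had the best-ranked peaks within 1 kb of an end, counting the start alone in the alpha and gamma clusters because their upper ends are shared. Pcdhb5 had a peak past its upper end in 5 libraries at a mean rank of 80.0, which is the region of the APH and CDC6 lists just beyond the 1 kb limit. Pcdhga5 had a peak at its start in CDC6 2 at rank 73.0, which is the CDC6 2 peak of the listed region past the start of Pcdhgb2. Pcdhga12 had one in CDC6 1 at rank 67.4, which is the CDC6 1 peak of the CDC6-only region before it. Pcdha9 had one in CDC6 2 at rank 58.3. Pcdhgc4 had its peaks in 3 libraries at a mean rank of 61.6. Pcdha9 also had a peak somewhere in its first 3 kb in 5 libraries, with folds of 2.38 in APH 2, 2.65 in CDC6 1, 2.94 in CDC6 2, 2.80 in WT 1 and 2.30 in WT 2. Pcdhb22, the last beta member, had peaks there in CDC6 2 (fold 2.47) and WT 1 (fold 2.46).

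WT 1 alone accounted for most peaks seen in a single library. A peak in the first 3 kb was found in 1 library for 14 members, and that library was WT 1 for 10 of them, CDC6 2 for 3 and CDC6 1 for 1. The 10 were Pcdha1, Pcdha4, Pcdha5, Pcdha6, Pcdhb2, Pcdhb3, Pcdhb17, Pcdhb20, Pcdhb21 and Pcdhga9, with folds of 2.04 to 2.74. WT 1 had the most peaks of the 6 libraries and came from another mESC line. What part either had in these peaks was not tested.

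**Figure D5:**
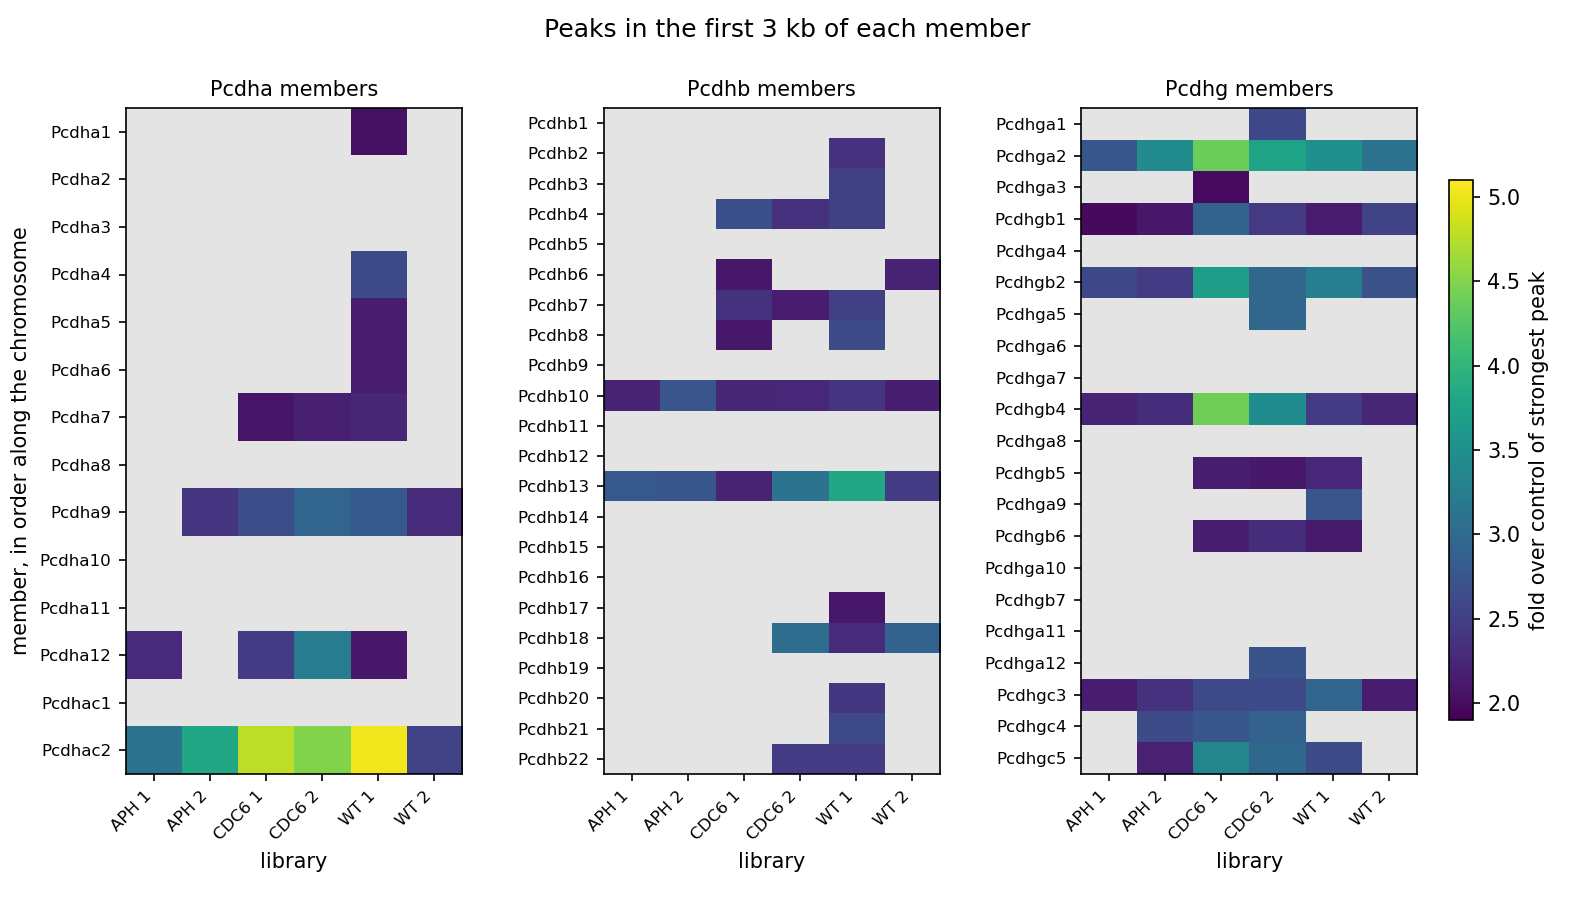
Fold over control of the strongest MACS peak touching the first 3 kb of each of the 57 members (rows, in chromosome order) in each library (columns, APH, CDC6, WT); grey marks no peak. The 8 filled rows are the members with a peak in all 6 libraries, led by Pcdhac2 with folds of 2.53 to 5.03, and 10 members are coloured in WT 1 alone.

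At the far end of the gamma cluster 1 peak region stood for many genes. It lay over the shared upper end of the 21 gamma members and reached the neighbouring end of Diaph1 (chr18:37839547-37846049), with a peak in all 6 libraries at folds of 2.08 to 3.20 and no listed origin. In APH 2, CDC6 1, CDC6 2 and WT 1 its peak came within 1 kb of the shared end. Counting peaks within 1 kb of either end therefore gave 25, 29, 27 and 32 of 57 members in these 4 libraries (43.9%, 50.9%, 47.4% and 56.1%), against 6 each in APH 1 and WT 2. Over all protein-coding genes the share was 48.3% in APH 1, 52.5% in APH 2, 59.4% in CDC6 1, 59.3% in CDC6 2, 66.4% in WT 1 and 48.1% in WT 2. Most of that difference comes from 1 peak counted for 21 genes. In all, the peaks of the 6 libraries merged into 71 regions in the windows. Of these, 12 were present in all 6 libraries, and 10 of the 12 held a listed origin. The exceptions were the Pcdhgc3 start and the shared gamma end. Of the 10, 1 (chr18:37821513-37832279) joined the CDC6-only and the APH-only origin past the start of Pcdhgc5 through overlapping peaks. Taken singly, these origins had a peak in 4 and 5 libraries. A further 31 regions were in 1 library each and held no listed origin. They could not hold one, since every listed origin of the windows had a peak in both libraries of its condition.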

How the data were processed

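The members and gene lists were chosen with earlier results of these data known. Per the submitters' processing notes, BWA 0.7.10, SAMtools 0.1.19, Picard 1.107, MACS2 2.0.10, bedtools 2.23.0 and FastQC were used; the sources used here do not give their roles. The deposited MACS peak lists give, per peak and library, the authors' score, the fold ratio over 1 control shared by all libraries, and the −log10 p-value and q-value. The deposited condition lists and second lists per library carry 2 scores of unstated meaning. The second lists' labels went against the condition lists: all rows of the APH condition list recurred in the second list labelled CDC6 1, those of the CDC6 list in CDC6 2, and those of the WT list in APH 1. Over the genome, both MACS libraries of the named condition met 31648 of 31653 APH origins, 31369 of 31384 CDC6 origins and 20062 of 20178 WT origins, while both libraries of another condition met 65.9% to 84.4%, so condition lists and MACS peaks were used as labelled. In the windows alone this check separates little, since WT 2 peaks also met all 9 APH origins and CDC6 2 peaks all 8 WT origins. These lists hold no read numbers, so the depth is unknown. Peak numbers limit the precision, and a further limit from depth could not be checked.

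Positions of genes were read from a RefSeq table for mm10 that has no strand. Strand for 17274 other genes came from a RefSeq promoter table that matched 0 of the 57 members, so the planned start windows became windows of 1 kb at either end, and the planned promoter letters were not used here. Overlap meant at least 1 bp. Percentile ranks were by −log10 q-value within a library. Peak numbers by midpoint, scaled to the mean library total, were tested with limma 3.58.1 (lmFit, eBayes with trend; R 4.3.3) on log2(number + 1) over all 6 libraries in 200 kb bins with a mean of at least 1 peak, and called at an adjusted p under 0.05; the script was tested on simulated data. With 2 libraries per condition an exact two-sided permutation test cannot give a p below 0.333. Named genes were all members with an origin at an end, the 5 best-ranked others, the last member of each cluster, other genes in the windows and fixed lists; members named beyond that were chosen after their values were seen. Alternatives changed the pseudocount, scaling, filter, bin size, q-value limit, flank, end window, source list and libraries used.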

Additional observations from a re-analysis of the deposited data

How the results depend on the processing

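No window passed the limma test under any alternative except the beta window for APH against WT, whose difference ranged from -0.89 to -0.48 as libraries were left out and passed without WT 2. The second lists, whose labels went against the condition lists, turned 6 differences when used under their labels: for APH against WT they were 0.36 (alpha), 0.17 (beta) and 0.61 (gamma), for CDC6 against WT 0.025 (alpha), and for APH against CDC6 0.33 (alpha) and 0.41 (beta). Leaving out libraries moved the gamma difference of APH against WT from -0.36 to 0.23 and the alpha difference of APH against CDC6 from -0.10 to 0.065. Called windows and bins numbered 8, 8 and 11 for APH against WT, CDC6 against WT and APH against CDC6 without the filter on bins, and ranged over 0 to 1941, 0 to 1302 and 0 to 540 as libraries were left out, with calls only where a WT library was left out; a lone remaining library was assumed to vary like the other groups. Without scaling the median of all bins shifted by -0.18 for APH against WT and -0.15 for CDC6 against WT, and the alpha differences were -0.92 and -0.83. With MACS peaks at a q-value of at most 0.01 the alpha difference was -1.25 for APH against WT and -0.63 for APH against CDC6, and the beta difference of APH against CDC6 was -0.09. Same-numbered libraries did not deviate together (correlations of -0.13, -0.24 and 0.089), so the numbers were not treated as pairing; with a replicate block 0 windows or bins were called, and the alpha difference of APH against WT was -0.67 with a limma adjusted p = 0.955. Counted from MACS peaks of both libraries, the windows held 20 APH, 25 CDC6 and 18 WT origins. At a q-value of at most 0.01 they held 14 APH, 19 CDC6 and 12 WT origins. With an end window of 500 bp, 2 members had an origin at an end in the APH and 2 in the CDC6 list; with 2 kb, 6 had one in the APH, 10 in the CDC6 and 8 in the WT list. From MACS peaks of both libraries these were 25 APH, 28 CDC6 and 24 WT members, 21 of them each through the shared gamma end, against 47.6%, 56.9% and 49.0% of all genes. At a q-value of at most 0.01 they were 25 APH and 25 CDC6 members, again with these 21, and 3 WT members with none of them, against 43.1%, 52.0% and 41.9% of all genes. The median rank of the windows' peaks kept to 44.7 to 48.4 as libraries were left out and was 44.5 by fold. Each condition had 1 list, so no library could be left out of the origin counts. Over all results and alternatives, 189 values kept direction and call, or stayed within 1.5 times a count or 1 SD of a rank, while 36 moved further, 9 turned direction and 1 passed the test.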
